A study of Mus musculus with 2 samples.

Results

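The phagocyte oxidase, myeloperoxidase and the enzymes that remove reactive oxygen were examined through 9 genes, picked by symbol from the 23309 rows of the gene table: the oxidase subunit genes Cybb, Cyba, Ncf1, Ncf4 and Rac2, the peroxidase gene Mpo, and the antioxidant enzyme genes Sod2, Cat and Gpx1. Each matched 1 row, took part in the authors' test and had 1 FPKM or more in its higher condition. FPKM is the number of fragments scaled by transcript length and by the size of the library. RNA was sequenced from mouse bone marrow progenitors of genotype Cebpaf/f;CreER. The marrow had been depleted of lineage-positive cells, transduced with retroviral HA-tagged Hoxa9 and Flag-tagged Meis1, and cultured with IL3. One group received ethanol, the vehicle, for 72 h and the other 5 nM 4-hydroxytamoxifen (4OHT) for 72 h, a drug that activates CreER and so removes the loxP-flanked Cebpa gene. Both groups carried the same alleles and both transduced genes, and cells given 4OHT without loxP sites were not analysed here, so loss of Cebpa and other effects of 4OHT or Cre cannot be told apart. What drives CreER and the age of the mice are not given in the sources used here. Each condition had 1 sample that joined 2 replicates. There is thus a single value for a gene in each condition, without a spread between replicates and without read counts behind it.

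The phagocyte oxidase passes electrons from NADPH across a membrane to oxygen and so makes superoxide, with which neutrophils and macrophages kill microbes. Its catalytic subunit, encoded by Cybb, sits in the membrane bound to the product of Cyba. The products of Ncf1 and Ncf4 wait in the cytosol and, with the GTPase Rac2, join the membrane pair when the cell is activated. Superoxide dismutases turn superoxide into hydrogen peroxide. Myeloperoxidase, a protein of primary granules that is made at the promyelocyte stage, uses hydrogen peroxide and chloride to make hypochlorous acid, and catalase and glutathione peroxidases break hydrogen peroxide down.

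The labelled progenitor identity was checked against marker genes, and Cebpa against its label. Cebpa had 109 FPKM with vehicle and 42.8 FPKM with 4OHT, which is 39.25% of the vehicle value, so its transcript was reduced and not absent. The progenitor markers Kit, Cd34, Myb, Ptprc and Flt3 summed to 509 FPKM with vehicle and 739 FPKM with 4OHT. Cd34 made up 284 and 493 FPKM of these sums. Kit, Cd34 and Flt3, 3 of the 5, rose, where 2.70% of tested rows of at least 1 FPKM did. Markers listed for later myeloid stages were expressed too. Those of promyelocytes summed to 5690 and 3714 FPKM, and those of monocytes and macrophages to 1024 and 629 FPKM. Markers of erythroid, B and T cells were each under 1 FPKM in both conditions. The sums of the deposited FPKM were 684536 and 673516, and the median log2 ratio of the 11953 tested rows was 0.00.

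Among the members, Cybb fell after 4OHT, none rose, and 8 did not pass the test. A gene was counted as called when its q was under 0.05 in the authors' deposited table. Of the tested rows 5.91% were called, 2.80% higher and 3.11% lower, and 1 of 9 members is too small a count to set apart from that background. The median of the members' log2((4OHT FPKM + 1)/(vehicle FPKM + 1)) was -0.24, 5 values were lower after 4OHT and 4 were higher. Sod2 counts among the higher ones by only 1.004-fold. In bulk RNA, fewer cells of a type and less RNA per cell cannot be told apart.

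**Figure D1:**
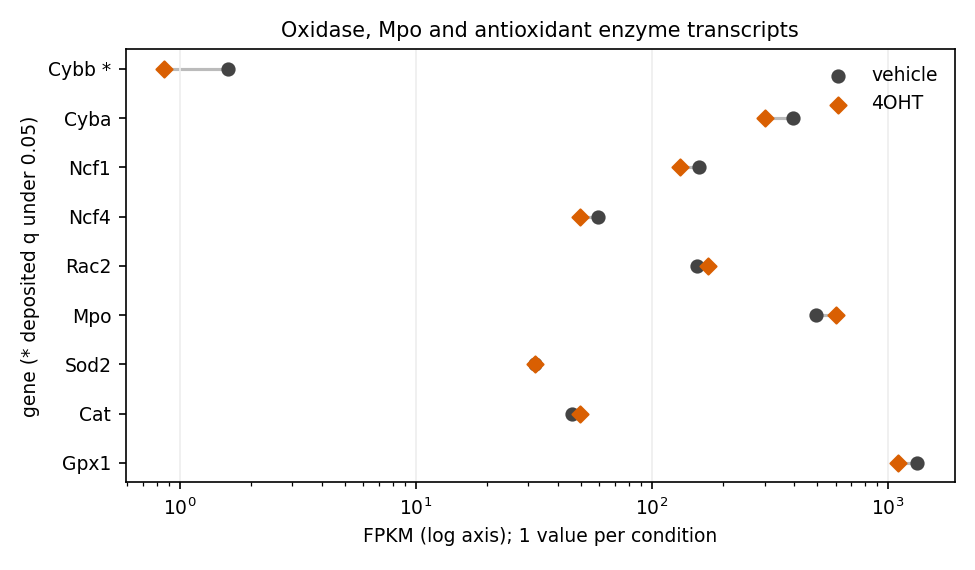
FPKM of the 9 members in vehicle cells (circles) and after 4OHT (diamonds), on a log axis, with 1 value per condition and no error bar. Cybb, with 1.61 and 0.855 FPKM, lies far to the left of its partner subunits, and the Sod2 points coincide.

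Cybb, the catalytic subunit, was the least abundant member. Its level was 1.61 FPKM with vehicle and 0.855 FPKM with 4OHT, a fall of 1.88-fold, where the authors' deposited table gives p = 9e-04 and q = 0.0192. The vehicle value was thus the higher of the pair, and the 4OHT value lay under 1 FPKM. The gene lies on chromosome X of mm9 at 9012378 to 9046450, and no other row of the table overlaps that locus. With the pseudocount the log2 ratio was -0.49, and without it -0.91. A table flag that the authors gave to rows with q under 0.05 and a change of at least 1.5-fold was also set for Cybb, and for 629 of the 707 called rows.

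Within 2-fold of the mean level of Cybb there were 1471 other tested rows, of which 145 (9.86%) were called. Of the 315 rows there that differed by 1.5-fold or more, 46.0% were called, and the smallest called fold was 1.58. Near the levels of the other 8 members, the share of all rows called ran from 3.69% to 5.58%, and the share called of rows that differed by 1.5-fold or more ran from 52.4% to 77.9%. Cybb, itself a called row, differed by more than the smallest called fold near its level. That fold describes the called rows and is not a limit of the test. Of the rows near Cybb, 11% had a larger absolute log2 ratio. Over the pair of conditions, the row nearest to Cybb in log2(FPKM + 1) was Tlr13, a receptor for bacterial ribosomal RNA, with 1.54 and 0.866 FPKM and q = 0.0472 in the authors' deposited table. Next came 0610040F04Rik, with 1.56 and 0.799 FPKM, which was not called, and Mgll, monoacylglycerol lipase, with 1.73 and 0.847 FPKM, which was. The distances were 0.0418, 0.0524 and 0.0673 log2 units, over only 2 values a gene.

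Most measured markers of maturing phagocytes fell, as Cybb did, where 3.10% of all tested rows of at least 1 FPKM fell. The 11 matched late neutrophil markers summed to 84.0 FPKM with vehicle and 31.1 FPKM with 4OHT, and 4 of the 5 that reached 1 FPKM fell. Of these sums, Lcn2 made up 57.2 and 21.0 FPKM. Ltf, Ngp, Camp, Mmp9 and Fcnb of this list were under 1 FPKM in both conditions, and Retnlg was listed at 0. The 14 monocyte and macrophage markers summed to 1024 and 629 FPKM, and 7 of 10 measured ones fell. Ly6c2 made up 551 and 323 FPKM of the sums. Among the others that fell, Itgam had 33.1 and 14.5 FPKM and Cd68 34.6 and 22.7 FPKM. Csf1r, Emr1 and Ccr2 were measured and not called. Mrc1, too low to count as measured, went the other way, from 0.185 up to 0.499 FPKM, and was called. The part of such cells in the fall of Cybb was not tested.

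Cyba, whose product holds the catalytic subunit in the membrane, was the most abundant of the 5 oxidase genes. It had 396 FPKM with vehicle and 301 FPKM with 4OHT, a 1.32-fold lower value for which the authors' deposited table gives q = 0.161. Of 432 tested rows within 2-fold of its level, 23 were called, and the smallest called fold was 1.40, so the difference of Cyba was smaller than any called at its level. The locus is chromosome 8 of mm9, 124948671 to 124956840. In rank, Cyba was number 256 among all rows in vehicle cells, where Cybb was number 10268.

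The cytosolic subunits showed differences smaller still. Ncf1, the organizer that carries the complex to the membrane, had 159 FPKM with vehicle and 132 FPKM with 4OHT, and the authors' deposited table gives q = 0.578. Ncf4, which binds a membrane phosphoinositide, had 59.0 and 49.9 FPKM (q = 0.728 in the same table). The values after 4OHT were the lower ones for both genes, by 1.21-fold for Ncf1 and 1.18-fold for Ncf4, and neither passed the test. The smallest called fold near the level of Ncf1 was 1.42, and near that of Ncf4 it was 1.40.

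Rac2 is the GTPase of the complex in blood cells. It had 156 FPKM with vehicle and 172 FPKM with 4OHT, so the 4OHT value was the higher one, and the authors' deposited table gives q = 1.00. Its close relative Rac1, found in most tissues, had 144 and 140 FPKM, and the ratio of Rac2 to Rac1 was 1.08 in vehicle cells and 1.23 after 4OHT. Ncf4 and Rac2 lie on chromosome 15 of mm9, at 78075241 to 78093010 and 78389599 to 78403213, with 297 kb between them. Their values differed in opposite directions, and neither was called.

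Per length, the subunits were far from equal in level. In vehicle cells the FPKM of Cyba was 246 times that of Cybb, and after 4OHT it was 352 times. For Ncf1 against Cybb the ratios were 98.8 and 154, and for Rac2 against Cybb 96.8 and 201. The ratio of Ncf1 to Ncf4 was 2.69 with vehicle and 2.64 with 4OHT. Cybb was thus the lowest of the 5 oxidase genes in both conditions, and the gap to these partners was wider after 4OHT, by values that carry no error here. The wider gap largely restates the fall of Cybb, the shared divisor, whose 4OHT value of 0.855 FPKM lay under 1 FPKM.

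Of 21 other genes that act on or with the oxidase, 1 fell and none rose. Of all tested rows of at least 1 FPKM, 3.10% fell and 2.70% rose. A count of 1 in 21 is too small to set apart from that background. The median of their log2 ratios was -0.04. The one that fell was Prkcb, a protein kinase C that phosphorylates the organizer subunit. It went from 2.83 to 1.62 FPKM, where the authors' deposited table gives q = 0.00165. Of the other protein kinase C genes listed, Prkcd had 74.5 and 68.7 FPKM and Prkce 1.94 and 2.84 FPKM. Neither was called. Arhgdib and Arhgdia, which keep Rac proteins in the cytosol, were the most abundant, with 796 and 670 FPKM for Arhgdib and 282 and 251 FPKM for Arhgdia. Pik3cd, a lipid kinase, had 73.7 and 99.4 FPKM (q = 0.104 in the same table), and Hvcn1, the proton channel that balances the charge, 12.8 and 12.4 FPKM. Of 9 genes of other NADPH oxidases and their partners, such as Nox1, Nox4 and Duox1, none reached 1 FPKM, and 6 were listed at 0 in both conditions.

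Mpo was the member with the largest upward difference. It had 496 FPKM with vehicle and 603 FPKM with 4OHT, a 1.22-fold higher value for which the authors' deposited table gives q = 0.603. Near its level 14 of 251 other tested rows were called, the smallest at 1.40-fold. Mpo lies on chromosome 11 of mm9 at 87607286 to 87617914, beside Lpo, the peroxidase of secretions, and Epx, that of eosinophils. A gap of 2.02 kb separates Mpo from Lpo, and 37.9 kb separates Lpo from Epx. Lpo stood at 0.00555 and 0.0189 FPKM and was not tested. Epx had 1.29 and 2.04 FPKM, where the authors' deposited table gives q = 0.185. Mpo thus held 99.7% of the summed FPKM of the 3 neighbours in both conditions. The promyelocyte markers Elane, Prtn3, Ctsg and Ms4a3, stored or made at the same stage, fell, and Cebpe, with 17.1 and 13.6 FPKM, was not called. These 5 summed to 5690 and 3714 FPKM, of which Ctsg made up 3175 and 2146 FPKM. Eosinophil markers, Epx included, summed to 25.6 and 39.5 FPKM, and of 4 measured ones Siglec5 alone was called, from 6.49 to 13.9 FPKM. Mast cell and basophil markers summed to 654 and 1065 FPKM, of which Cpa3, a mast cell carboxypeptidase, made up 562 and 975 FPKM. Cpa3 was the only one of 5 measured markers there that was called, and Mcpt8 had 61.2 and 61.0 FPKM. Over all tested rows of at least 1 FPKM, 3.10% fell and 2.70% rose. The single called markers of these last 2 lists are too few to set apart from that share. The part of such cells in the Mpo and Epx values was not tested.

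Cebpa encodes a DNA-binding factor. The RefSeq promoter windows of 7 members (build GRCm38.p6, 250 bases before the start, on the strand of the gene) were therefore read. They are shown for Cybb, the gene that fell, at chrX:9469325-9469574 (minus strand), and for Mpo, the member with the largest upward difference, at chr11:87793534-87793783 (plus strand). Capitals mark matches to a motif.
Cybb: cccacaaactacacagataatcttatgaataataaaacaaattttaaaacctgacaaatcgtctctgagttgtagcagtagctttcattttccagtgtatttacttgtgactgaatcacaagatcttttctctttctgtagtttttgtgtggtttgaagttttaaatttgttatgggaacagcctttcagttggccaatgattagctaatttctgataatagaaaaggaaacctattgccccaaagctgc
Mpo: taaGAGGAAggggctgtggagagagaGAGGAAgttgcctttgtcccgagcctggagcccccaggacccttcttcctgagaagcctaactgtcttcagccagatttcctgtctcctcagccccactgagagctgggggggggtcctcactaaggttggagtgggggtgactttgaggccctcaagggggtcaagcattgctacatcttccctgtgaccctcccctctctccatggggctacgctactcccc

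Searches on both strands used TTGCNNAA, a C/EBP-like pattern, GAGGAA, a core bound by the myeloid factor PU.1 and other ETS proteins, and TGACNNNGC, the core of the antioxidant response element bound by Nrf2. The patterns do not overlap in these windows. None of the 7 windows held TTGCNNAA, which 9.57% of 32817 RefSeq windows of that length held. The Mpo window held GAGGAA 2 times, starting 247 and 224 bases before the start, and the Sod2 and Cat windows held it once each, against 23.3% of all windows. The antioxidant core was in none of the 7, against 10.2% of all. The Cybb window had 34% G and C, the Mpo window 59.2%, and the median over all windows was 52.4%. A match is a description of letters and not a bound site.

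**Figure D2:**
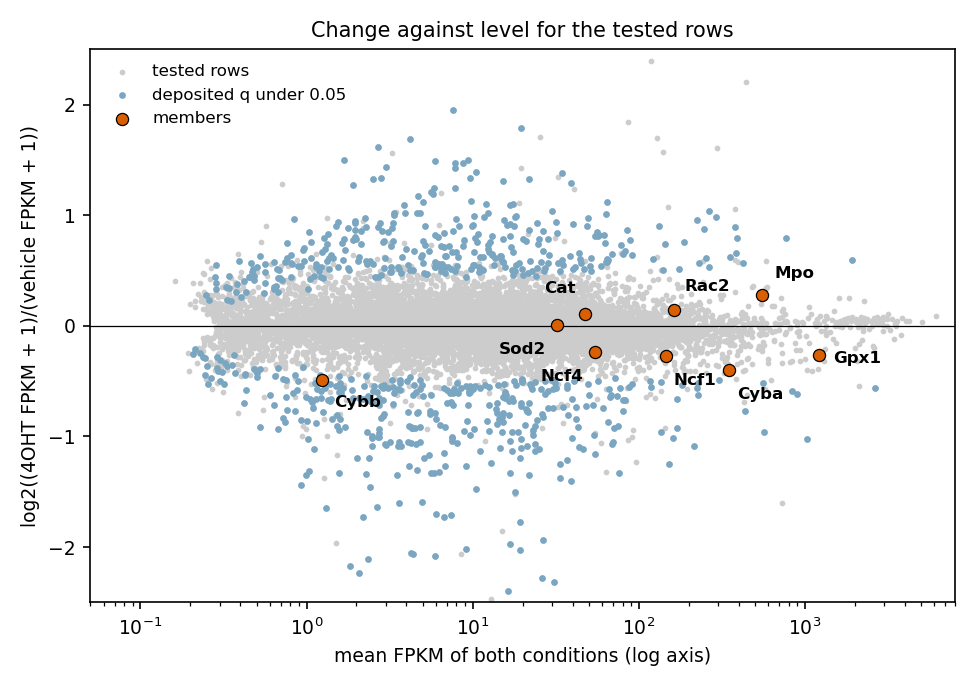
Log2((4OHT FPKM + 1)/(vehicle FPKM + 1)) against the mean FPKM of both conditions (log axis) for the tested rows (grey), the rows with q under 0.05 in the authors' deposited table (blue) and the 9 members (orange), with 32 rows outside the axes. Cybb at -0.49 lies among called rows, and the other 8 lie between -0.40 for Cyba and 0.28 for Mpo.

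Sod2, the manganese superoxide dismutase of mitochondria, had the smallest difference of the 9. Its level was 32.0 FPKM with vehicle and 32.1 FPKM with 4OHT, where the authors' deposited table gives q = 1.00. The values differed by 1.004-fold, and no direction is read from so small a difference. The smallest called fold near that level was 1.39. Sod1, the copper and zinc enzyme of the cytosol, had 713 and 752 FPKM, and Ccs, which loads its copper, 30.9 and 31.0 FPKM. Neither passed the test, and the secreted form Sod3 was listed at 0. Sod2 made up 4.30% of the summed dismutase FPKM in vehicle cells and 4.10% after 4OHT.

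Cat, the catalase of peroxisomes, had 46.0 FPKM with vehicle and 49.6 FPKM with 4OHT, a 1.08-fold higher value where the authors' deposited table gives q = 1.00. Gpx1, the selenium-dependent glutathione peroxidase of cytosol and mitochondria, was the most abundant member. It had 1328 FPKM with vehicle and 1105 FPKM with 4OHT, a 1.20-fold lower value (q = 0.657 in the same table). Only 121 other tested rows lay within 2-fold of its level, 5 of them called, the smallest at 1.505-fold, so a change of the size seen was below any that was called. Cat lies on chromosome 2 (103294061 to 103325310), Gpx1 on chromosome 9 (108241411 to 108242673) and Sod2 on chromosome 17 (13200705 to 13210985) of mm9.

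Among 15 genes whose products remove hydrogen peroxide (catalase, the glutathione peroxidases and the peroxiredoxins), Gpx1 held 41.9% of the summed FPKM in vehicle cells and 39.4% after 4OHT. Cat held 1.45% and 1.77%. The sum was 3167 FPKM with vehicle and 2806 FPKM with 4OHT. Of 3 other measured glutathione peroxidases 1 fell, too few to set beside the 3.10% of tested rows of at least 1 FPKM that fell. It was Gpx3, the form secreted into plasma, from 31.3 to 16.3 FPKM, where the authors' deposited table gives q = 0.00165. Gpx4, which protects membrane lipids, had 438 and 376 FPKM and was not called. The median of the 3 log2 ratios was -0.43. None of the 7 peroxiredoxin genes, with Srxn1 counted among them, passed the test. Prdx5 had 413 and 315 FPKM (q = 0.180 in the same table), and Prdx2 had 246 and 288 FPKM.

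Around the members, the related genes held more falls than rises. Their lists span oxidase partners, other oxidases, peroxidases, antioxidant enzymes, and Nrf2, NADPH, selenoprotein and nitric oxide genes. Of 95 measured genes on 12 related lists, 15 fell and 1 rose, which is 15.8% and 1.05%. Among the 10932 tested rows of at least 1 FPKM, 3.10% fell and 2.70% rose. The median log2 ratio of the 95 was -0.04, beside 0.00 over those rows, and 79 of the 95 were not called. These lists were chosen with earlier results of the same table known.

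**Figure D3:**
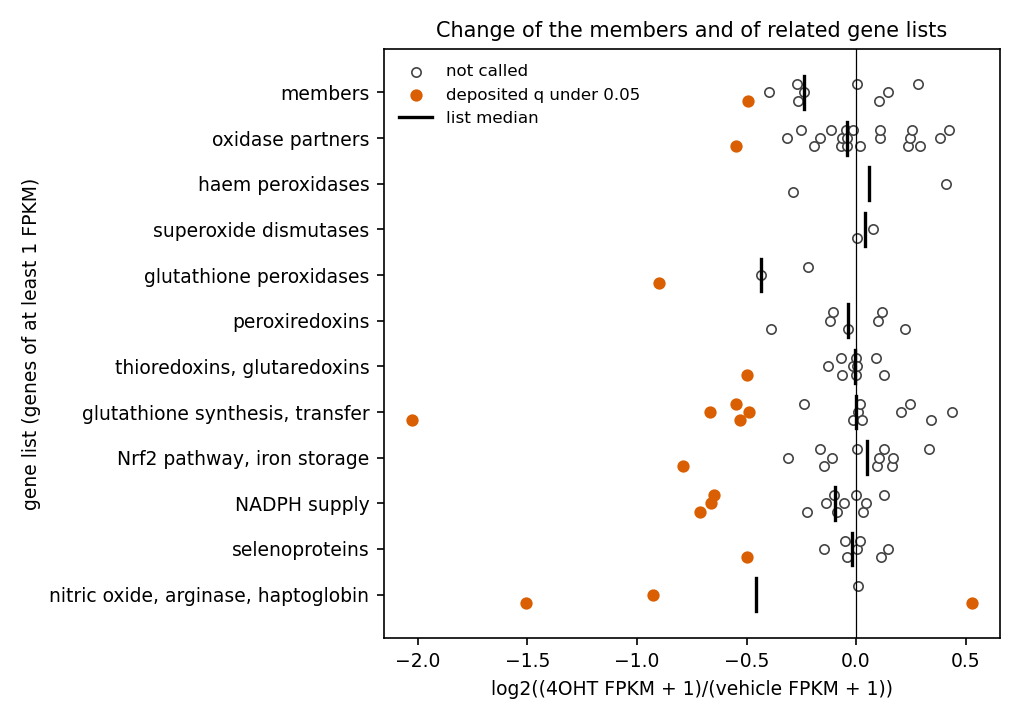
Log2((4OHT FPKM + 1)/(vehicle FPKM + 1)) of each measured gene, by list, with called genes filled and a bar at the median of each list. The called points lie left of 0 except for 1 gene, Gch1, and the list medians run from -0.46 to 0.06.

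NADPH feeds both the oxidase and the reductases that recycle glutathione and thioredoxin. Of 12 measured genes that supply it, 3 fell, none rose and 9 were not called. The median of their log2 ratios was -0.09. G6pdx, glucose-6-phosphate dehydrogenase, which opens the pentose phosphate pathway, fell from 66.5 to 40.2 FPKM, where the authors' deposited table gives q = 0.0139. Its locus overlaps that of Ikbkg, which had 13.1 and 14.2 FPKM. Pgd, the next NADPH-forming enzyme of the pathway, fell from 209 to 132 FPKM (q = 0.00165 in the same table). Idh1, the cytosolic NADP-dependent isocitrate dehydrogenase, fell from 81.8 to 51.9 FPKM (q = 0.00310 in the same table). The 3 falls were of like size, 1.65-fold for G6pdx, 1.585-fold for Pgd and 1.58-fold for Idh1. Later, non-oxidative enzymes of the pathway did not pass the test, with 376 and 342 FPKM for Taldo1 and 298 and 280 FPKM for Tkt.

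Of 14 measured genes of glutathione synthesis, reduction and transfer, 5 fell and none rose. The median of their log2 ratios was 0.00. Mgst1, a microsomal glutathione transferase, fell 4.52-fold, from 31.6 to 7.01 FPKM, the widest change among the measured related genes. Gsr, the reductase that returns oxidized glutathione to its active form with NADPH, fell from 99.5 to 62.3 FPKM. The authors' deposited table gives a q of 0.00165 for both. Gstm1, a cytosolic transferase, fell from 141 to 96.2 FPKM (q = 0.0111 in the same table). Mgst2, the most abundant gene of the list, fell from 354 to 252 FPKM. Slc7a11, the cystine importer, named after its values were seen, fell from 6.07 to 3.89 FPKM. Gclc and Gclm, the subunits of the enzyme that begins glutathione synthesis, had the higher value after 4OHT, 30.6 and 36.5 FPKM for Gclc and 75.8 and 96.4 FPKM for Gclm, and were not called. Gsto1 had 209.7 and 207.9 FPKM.

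Thioredoxin, Nrf2 and selenium genes each had 1 called member, which fell. Of 10 thioredoxin and glutaredoxin genes it was Glrx, glutaredoxin, from 67.1 to 47.1 FPKM, where the authors' deposited table gives q = 0.0403. Txn1, the cytosolic thioredoxin, had 429.5 and 393.3 FPKM, and Txn2, the mitochondrial one, 132 and 127 FPKM. Of 12 genes of the Nrf2 pathway and of iron storage it was Hmox1, haem oxygenase, from 19.7 to 10.9 FPKM (q = 0.00165 in the same table). Nfe2l2, the gene of Nrf2 itself, had 28.2 and 31.8 FPKM, and the ferritin genes Ftl1 and Fth1 had 2254 and 2009 FPKM and 1006 and 1129 FPKM. Of 8 selenoprotein genes and genes of selenoprotein synthesis it was Msrb1, a methionine sulfoxide reductase, from 137 to 96.8 FPKM (q = 0.0347 in the same table). Sepw1 had 198.9 and 199.5 FPKM. The falls of Glrx, Msrb1, Gstm1 and Mgst2 were under 1.5-fold and carried no flag of the authors.

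Of 4 measured genes of nitric oxide, arginine and haemoglobin handling or proton leak, 2 fell and 1 rose. Hp, haptoglobin, which binds free haemoglobin, fell from 27.2 to 8.94 FPKM, and Arg1, arginase, from 5.96 to 2.66 FPKM. Gch1, which makes the cofactor of nitric oxide synthases, rose from 5.40 to 8.22 FPKM. The authors' deposited table gives a q of 0.00165 for Hp, 0.00310 for Arg1 and 0.0403 for Gch1. Ucp2, the mitochondrial carrier, had 123 and 124 FPKM. The synthases Nos1, Nos2 and Nos3 were under 1 FPKM and were not tested. Among other haem-containing peroxidases, Ptgs1 had 45.1 and 36.8 FPKM and was not called, and Ptgs2, too low to count as measured, went from 0.637 down to 0.212 FPKM and was called (q = 0.00310 in the same table).

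**Figure D4:**
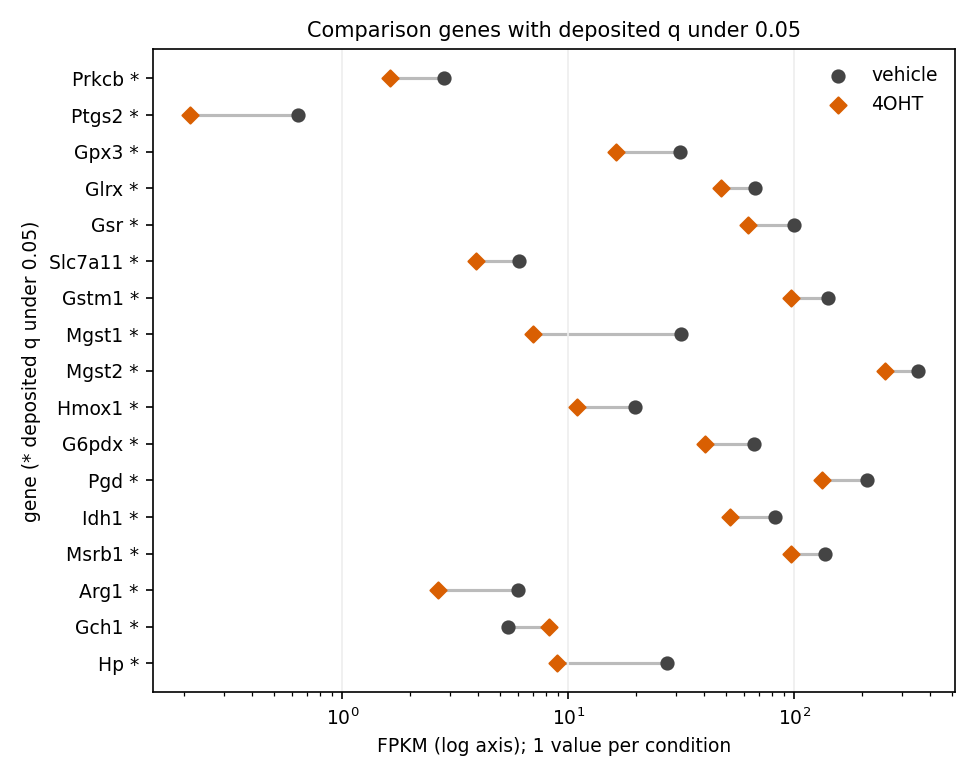
FPKM in vehicle cells (circles) and after 4OHT (diamonds), on a log axis, for the 17 related genes with q under 0.05 in the authors' deposited table. The 4OHT value is the lower one for each gene but Gch1, and Mgst1, from 31.6 to 7.01 FPKM, has the widest gap.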

How the data were processed

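RNA was sequenced from 1 vehicle and 1 4OHT sample, each joining 2 replicates per the labels. The authors deposited 1 table with an FPKM value per gene and condition and, per the file headers, a test statistic (a score), a p-value, a q-value, a linear fold ratio and a status. Per the submitters' processing notes the tools were Cuffdiff 2.0.2, Bowtie2 2.0.0.7 and CASAVA 1.8.2, without their roles, and the build was mm9. The sources used here do not give how conditions were scaled. A Benjamini-Hochberg adjustment of the deposited p-value gave back the deposited q-value over the 11953 tested rows to within 5.28e-07. The deposited p-value is never under 5e-05, which 363 rows share, so 0.00165 is the smallest q, and which release made the test is in doubt. The score and the fold ratio of the authors were not used.

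No test was run here, since each condition has 1 value. A gene rose or fell where its row in the authors' deposited table had status OK and q under 0.05, and a listed gene counted as measured if its higher value was at least 1 FPKM. The log2 ratio used a pseudocount of 1, which understates the change of low genes. Precision was described from tested rows within 2-fold of a member's mean level. Depth is unknown, so no interval is given, and without strand information antisense reads cannot be told apart.

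The members and lists were chosen with earlier results of these data known. All members were named, and from each list up to 3 called genes per direction by log2 ratio and the 2 most abundant, with the 3 rows nearest to a called member over log2(FPKM + 1). Others were named after their values were seen. Of the list entries, 126 matched by symbol, 2 by another symbol, and 1 was not analysed here. A further gene of the oxidase list is not reported here. Promoters are RefSeq windows on GRCm38.p6, which held 7 of the 9 members. Loci are as deposited on mm9, with starts counted from 1. Python 3.11.15, pandas 2.3.3, scipy 1.17.1 and matplotlib 3.10.9 were used. Alternatives are in the closing section.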

Additional observations from a re-analysis of the deposited data

How the results depend on the processing

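Leaving the values as deposited, a q threshold of 0.01 ended the call of Cybb, which left 0 members called lower, and gave 9 related genes lower and 0 higher, against 15 and 1. With q under 0.10, 15 related genes were lower and 2 higher, and by a change of at least 1.5-fold with no q, 11 were lower and 3 higher. The authors' own flag, an alternative added after seeing the data, gave 1 member lower and 11 related genes lower and 1 higher. No member's log2 ratio changed sign with another pseudocount or scaling, and the 2 scalings moved it by less than 0.1. For Cybb it was -0.84 with a pseudocount of 0.1 and -0.17 with 5, since its level is low. No paired analysis was possible because the replicates were joined into 1 value per condition, and for the same reason no replicate could be left out. Read depth is unknown, and near the level of Cybb 46.0% of the differences of 1.5-fold or more were called.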
